A study of Homo sapiens with 8 samples.

Results

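The protease-activated receptors are encoded by 4 genes, F2R (PAR1), F2RL1 (PAR2), F2RL2 (PAR3) and F2RL3 (PAR4). They were found by gene symbol among the 26485 genes tabulated for each of 8 RNA-seq libraries of BEAS-2B cells, a virus-immortalised human bronchial epithelial line. The receptors sit in the cell membrane and are switched on when a protease cuts their outer end, which frees a new end that acts as a tethered ligand. Thrombin cuts PAR1, PAR3 and PAR4, whereas PAR2 answers to trypsin-like enzymes, including serine proteases of house dust mites. The activated receptors couple to G proteins that raise calcium, and are then taken into the cell, where most of them are degraded. In airway epithelium PAR2 is known for releasing cytokines after contact with inhaled proteases.

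The groups were 3 libraries of cells given LY96 siRNA and house dust mite (HDM) extract, 3 of cells given control siRNA and HDM extract, 1 with LY96 siRNA and PBS, and 1 with control siRNA and PBS. LY96 encodes MD-2, which binds lipopolysaccharide together with TLR4. In every group the medium was changed to BEBM 24 h before stimulation, and RNA was taken 24 h after it. Nothing in the labels states that same-group libraries were grown as separate cultures. The p-values therefore reflect only how far these libraries scatter, and that scatter may be technical.

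The deposited values were taken to be FPKM (fragment counts divided by transcript length and by library size), and their totals ranged from 329777 to 340328 per library. LY96 was listed at 0 in all 8 libraries, so the knockdown could not be checked and groups are named by their labels. All 7 epithelial markers examined (4 of them simple-epithelial keratins, with KRT5, EPCAM and CDH1) exceeded a mean of 1 FPKM. The endothelial marker PECAM1, the platelet markers PF4, PPBP and GP9, the mast cell tryptases TPSAB1 and TPSB2 and the leukocyte marker PTPRC were listed at 0 in all 8 libraries. Of the other platelet markers, ITGA2B was at 0.516 to 0.944 FPKM and GP1BA at 0.526 to 0.919 FPKM. The endothelial markers VWF (at most 0.316 FPKM) and CLDN5 (at most 0.118 FPKM) were above 0 in all 8 libraries, and CDH5, TEK and KDR in some. The mast cell markers KIT (at most 0.046 FPKM) and CPA3 (at most 0.047 FPKM) were also above 0 in some. No endothelial, platelet or mast cell marker averaged 1 FPKM. Of 7 leukocyte markers, CD68 and CD74 exceeded 1 FPKM. Of 6 fibroblast markers, COL1A1 was at 5.72 to 10.2 FPKM and PDGFRB at 9.39 to 16.1 FPKM, while DCN and LUM were listed at 0 in all 8 libraries. PDGFRB was lower with HDM than with PBS over both siRNAs (log2 -0.60, adjusted p = 0.000162 in limma). Other markers were also called in that comparison, where 8.36% of all genes were called. CD74 (log2 0.715), CD68 (0.40) and KRT5 (0.15) were higher, and KRT7 (-0.38), KRT8 (-0.19) and KRT18 (-0.14) were lower. COL1A1, KRT19, EPCAM and CDH1 were not called.

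F2R and F2RL1 were readily detected and stood clearly apart from F2RL2 and F2RL3, which were too low to judge. F2RL1, the trypsin-type receptor gene, was the most abundant of the 4 in every library, and F2R, the thrombin receptor gene, came second in every library. F2RL1 was lower with LY96 siRNA than with control siRNA under HDM, a small difference whose call depended on the processing. F2R changed in none of the comparisons by the test used.

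F2RL1 was at 19.0, 16.3 and 16.3 FPKM in the LY96 siRNA HDM libraries, against 20.4, 19.6 and 22.4 FPKM in the control siRNA HDM libraries. It was at 22.3 FPKM in the LY96 siRNA PBS library and 22.0 FPKM in the control siRNA PBS library. The 2 HDM groups did not overlap. They did not overlap in either direction for 37% of the genes tested, and LY96 siRNA was the lower for 21.8% of the genes tested. Each LY96 siRNA HDM library lay below each PBS library, and the share of all genes with that order was not counted. The level of F2RL1 exceeded that of 75.8% to 83.2% of the genes above 0 in the same library.

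F2R was at 13.6, 13.8 and 14.2 FPKM in the LY96 siRNA HDM libraries, against 13.6, 14.02 and 13.0 FPKM in the control siRNA HDM libraries. It was at 13.1 FPKM in the LY96 siRNA PBS library and 13.2 FPKM in the control siRNA PBS library. The 2 HDM groups overlapped. Each LY96 siRNA HDM library lay above both PBS libraries, and the share of all genes with that order was not counted. F2R exceeded 70.4% to 73.2% of the genes above 0 in the same library, and its highest library was 1.09-fold its lowest, against 1.37-fold for F2RL1. Over the 8 libraries the SD of log2(FPKM + 1) was 0.04 for F2R and 0.18 for F2RL1. That SD was smaller than F2R's in 5.5% of the 12604 genes averaging 1 FPKM or more, and smaller than F2RL1's in 86.1% of them (median SD 0.09).

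F2RL2, a thrombin receptor that mainly assists PAR4 in mouse platelets, was listed at 0 in 5 of 8 libraries. It was at 0.0075, 0 and 0 FPKM with LY96 siRNA and HDM, at 0.0775, 0 and 0.0650 FPKM with control siRNA and HDM, and at 0 in both PBS libraries. F2RL3, the low-affinity thrombin receptor of human platelets, was listed at 0 in 6 of 8 libraries. It was at 0.0374, 0 and 0 FPKM with LY96 siRNA and HDM, at 0 in the 3 control siRNA HDM libraries, at 0.0352 FPKM with LY96 siRNA and PBS, and at 0 with control siRNA and PBS. Both genes lay far under the mean of 1 FPKM set for testing, read depth is unknown, and an exact 0 can be a failed estimate, so no difference between groups was tested for them. F2RL2 lies wholly inside the IQGAP2 gene on the opposite strand and shares 87 of its 3429 exon bases with IQGAP2 exons. IQGAP2 had 1.29 ± 0.0750 FPKM with LY96 siRNA and HDM and 1.15 ± 0.0460 FPKM with control siRNA and HDM (SD, n = 3 each), and whether reads were counted by strand is not given in the sources used here.

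**Figure D1:**
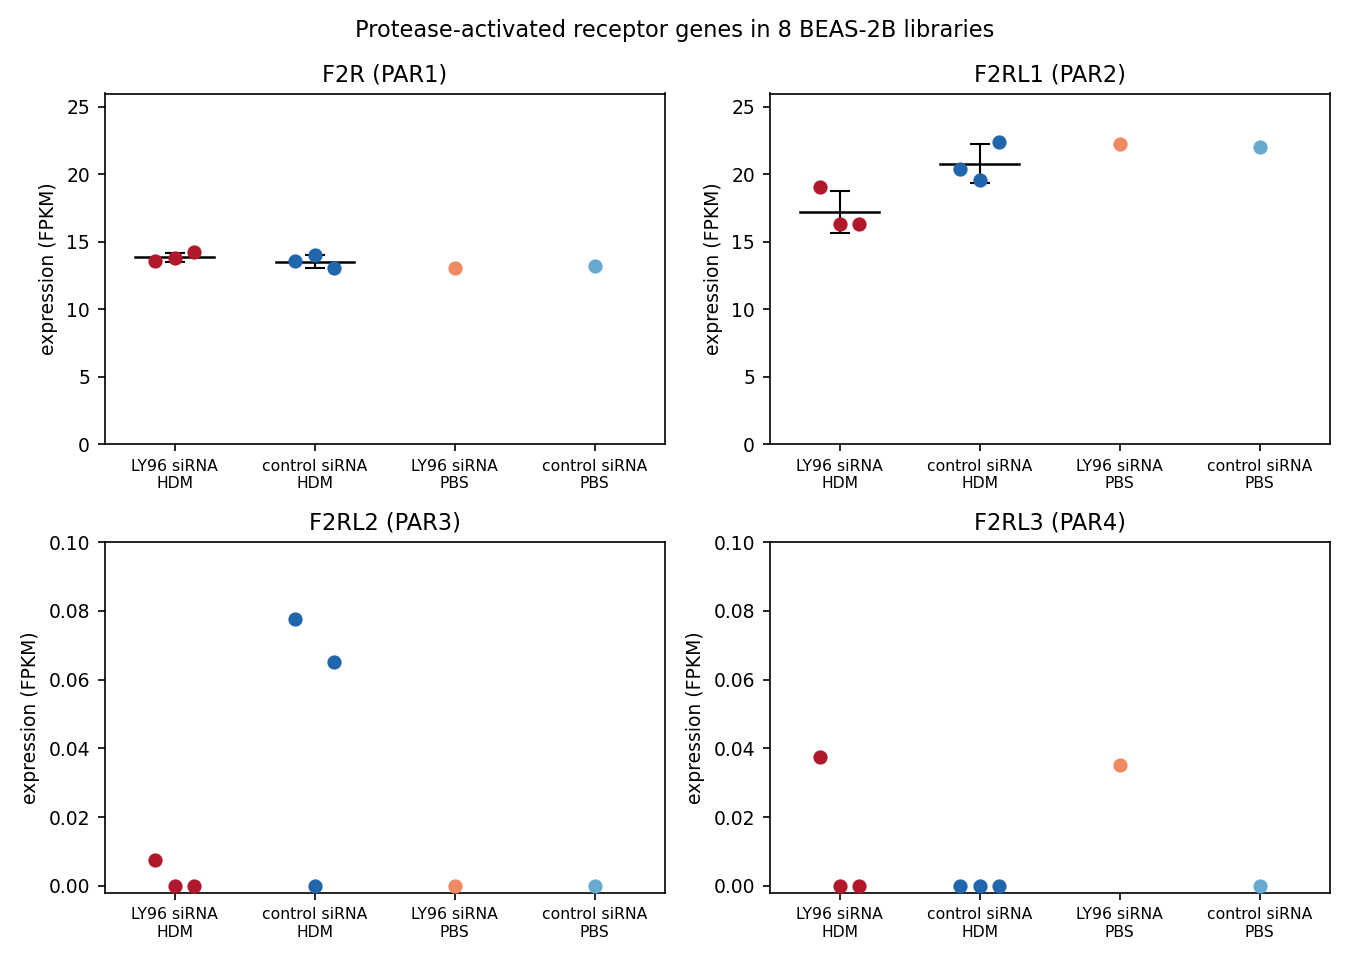
FPKM of the 4 receptor genes (vertical axes, with a far smaller scale for F2RL2 and F2RL3) in each of 8 libraries, by group. Points are libraries, and lines with bars give mean and SD of the groups of 3 for F2R and F2RL1. F2R stays between 13.0 and 14.2 FPKM, the LY96 siRNA HDM points of F2RL1 lie below all others of that gene, and F2RL2 and F2RL3 do not reach 0.1 FPKM.

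In GENCODE v29 on GRCh38, 3 of the 4 genes lie close together on chromosome 5. F2RL2 spans chr5:76615482-76623434 on the minus strand, F2R spans chr5:76716043-76735781 on the plus strand and F2RL1 spans chr5:76818933-76835315 on the plus strand. F2RL3 lies apart at chr19:16888860-16892606 on the plus strand. The longest transcript of each has 2 exons. The genes flanking the cluster were not uniformly on or off, since S100Z, downstream of F2RL1, and SV2C were listed at 0 in all 8 libraries, while AGGF1 had 14.1 ± 0.460 FPKM with LY96 siRNA and HDM and 16.6 ± 0.689 FPKM with control siRNA and HDM (SD, n = 3 each). AGGF1 differed by log2 -0.22 ± 0.04 (SE, adjusted p = 0.0129 in limma). Of the 4 neighbours tested on both chromosomes it was the only one called, where 15.6% of all genes were called. IQGAP2, on chromosome 5, was at 0.09. SIN3B and HAUS8, which lie near F2RL3 on chromosome 19, were at -0.04 and 0.05. CRHBP, on chromosome 5, and CPAMD8 and NWD1, on chromosome 19, averaged under 1 FPKM.

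The promoter table of RefSeq (GRCh38.p14) matched F2RL1, F2RL2 and F2RL3 but held no entry for F2R, the other well-detected receptor. Whether CG content goes with detection among the receptors therefore cannot be read here. For the 3 matched genes, the stretches ahead of the first GENCODE transcript start are shown, as F2RL1 and the 2 receptors near 0 differ there in CG content. They are chr5:76818780-76818932 on the plus strand, chr5:76623435-76623653 on the minus strand and chr19:16888749-16888859 on the plus strand, written 5′ to 3′ with each CG dinucleotide in capitals.
F2RL1: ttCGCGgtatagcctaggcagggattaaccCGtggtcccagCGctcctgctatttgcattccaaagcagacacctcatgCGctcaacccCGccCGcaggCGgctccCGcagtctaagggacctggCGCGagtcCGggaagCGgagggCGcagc
F2RL2: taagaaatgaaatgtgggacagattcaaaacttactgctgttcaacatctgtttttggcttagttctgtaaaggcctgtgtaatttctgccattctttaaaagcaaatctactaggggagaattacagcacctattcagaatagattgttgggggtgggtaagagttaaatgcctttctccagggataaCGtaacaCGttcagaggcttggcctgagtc
F2RL3: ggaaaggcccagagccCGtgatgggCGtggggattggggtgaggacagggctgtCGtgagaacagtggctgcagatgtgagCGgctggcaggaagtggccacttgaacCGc
The full 300-base window, 250 bases before to 50 after the RefSeq start, held 31 CG dinucleotides for F2RL1, 5 for F2RL2 and 11 for F2RL3, against a median of 14 over 35116 promoters. Fewer CG dinucleotides were present in 79.3% of all promoters than in that of F2RL1, in 29.6% than in that of F2RL2 and in 45.3% than in that of F2RL3. GC content was 69.0% for F2RL1, 44.7% for F2RL2 and 67.3% for F2RL3, against a median of 58.7%. On both strands, GGGCGG (the GC box, which overlaps the CG count) was found 3 times in the F2RL1 window and in 44.95% of all promoters. TGANTCA (an AP-1 motif) was found once in the F2RL2 window, across the first GENCODE start, and in 7.71% of all promoters. GGGNNTTCC (an NF-kB-type motif, in 6.58% of all promoters) and TATAAA (in 11.53%) were not matched in these windows, which bears only on these letters.

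Under HDM, F2RL1 was lower with LY96 siRNA than with control siRNA, and F2R showed no such difference. This contrast of 3 libraries with 3 asks whether the receptors differ between cells labelled LY96 siRNA and control siRNA during mite exposure. F2RL1 averaged 17.2 ± 1.57 FPKM with LY96 siRNA and 20.8 ± 1.44 FPKM with control siRNA (SD, n = 3 each). The log2(FPKM + 1) difference was -0.26 ± 0.07 (SE, 95% interval -0.42 to -0.10, adjusted p = 0.0376 in limma with Benjamini-Hochberg adjustment over 12598 genes). At this threshold of 0.05, 15.6% of all genes tested were called in either direction and 8.92% were called lower. By the exact permutation test over the 6 libraries F2RL1 had p = 0.10, two-sided, the smallest that 3 against 3 allows. The LY96 siRNA libraries lay wholly below the control siRNA libraries for 21.8% of the genes tested, and the groups did not overlap in either direction for 37% of them.

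The difference of F2RL1 kept its sign in all 16 alternatives run, from log2 -0.33 to -0.19, but its adjusted p passed 0.05 in 6 of them and missed it in 10, with a range of 0.0137 to 0.109. Without LY96 HDM replicate 2 or 3 the adjusted p was 0.108 and 0.109, and without control HDM replicate 1, 2 or 3 it was 0.0842, 0.0504 and 0.104. Without LY96 HDM replicate 1, the highest library of its group, it was 0.0137. Ribosomal RNA took 1.03% to 1.31% of the FPKM total in the LY96 siRNA HDM libraries and 0.475% to 0.824% in the control siRNA HDM libraries. The summed level of the 7 epithelial markers was 1156 to 1220 FPKM in the LY96 siRNA HDM libraries and 1278 to 1322 FPKM in the control siRNA HDM libraries. Of the 7, KRT8, KRT18 and KRT19 were lower (log2 -0.25, -0.24 and -0.66), CDH1 was higher (0.49), and KRT5 (0.09), KRT7 (-0.16) and EPCAM (-0.22) did not pass the test. The part of the ribosomal share or of the markers in the F2RL1 difference was not tested. In bulk RNA, fewer cells expressing a gene and less of its RNA per cell cannot be told apart.

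F2R averaged 13.9 ± 0.350 FPKM with LY96 siRNA and HDM and 13.5 ± 0.496 FPKM with control siRNA and HDM (SD, n = 3 each). The log2 difference was 0.03 ± 0.04 (SE, adjusted p = 0.655 in limma), and its 95% interval ran from -0.06 to 0.13. By the exact permutation test, two-sided, F2R had p = 0.50.

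**Figure D2:**
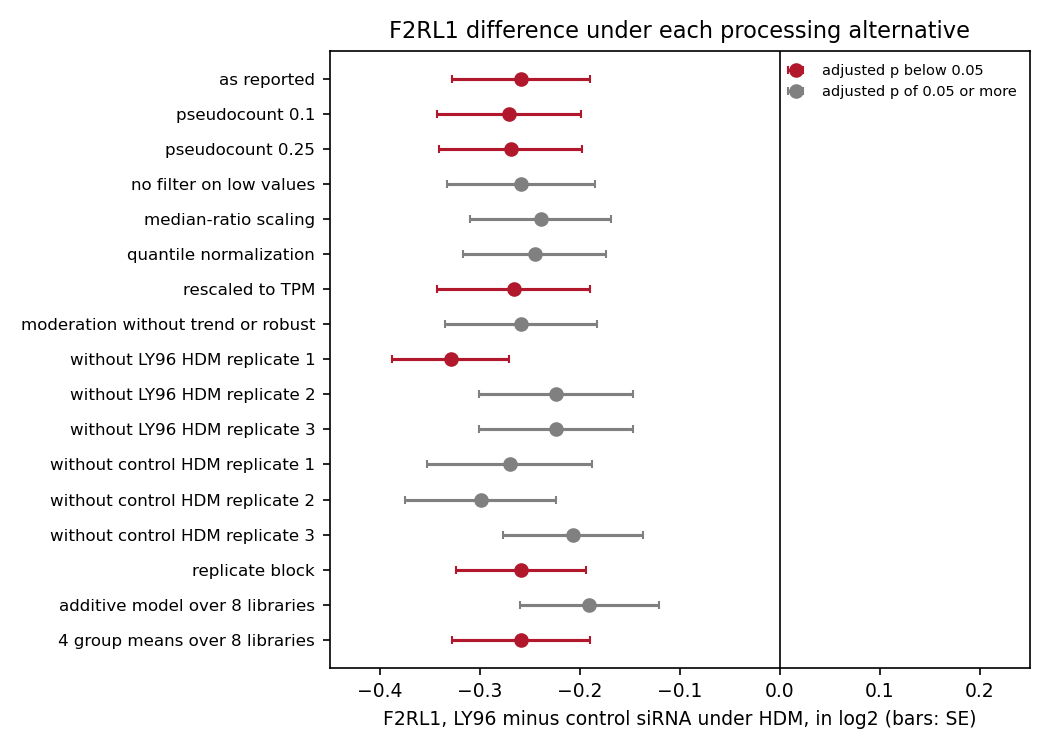
F2RL1 difference in log2 (LY96 siRNA minus control siRNA under HDM, horizontal axis) with its SE as reported and under each of 16 processing alternatives (vertical axis). Red points have an adjusted p below 0.05 and grey points do not, and every point lies between -0.33 and -0.19.

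HDM extract did not shift either receptor past the threshold. Averaged over both siRNAs, the difference between HDM and PBS was log2 -0.22 ± 0.07 for F2RL1 (SE, 95% interval -0.38 to -0.06, adjusted p = 0.0954 in limma over 12604 genes) and 0.05 ± 0.04 for F2R (SE, 95% interval -0.04 to 0.15, adjusted p = 0.548). In this comparison 8.36% of the genes tested were called, and 21.6% had an unadjusted p below 0.05. With PBS unreplicated for either siRNA, the spread of PBS libraries was taken to equal that of HDM libraries. Without LY96 HDM replicate 1 the adjusted p of F2RL1 was 0.0287.

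Within LY96 siRNA, F2RL1 was 17.2 ± 1.57 FPKM with HDM (SD, n = 3) and 22.3 FPKM with PBS, a log2 difference of -0.36 ± 0.10 (SE, 95% interval -0.58 to -0.13, adjusted p = 0.0863 in limma, where 4.9% of genes were called, 2.91% higher and 1.98% lower). Without LY96 HDM replicate 1 this adjusted p was 0.0218. Within control siRNA, F2RL1 was 20.8 ± 1.44 FPKM with HDM (SD, n = 3) and 22.0 FPKM with PBS, a log2 difference of -0.08 ± 0.10 (SE, 95% interval -0.30 to 0.14, adjusted p = 0.735, where 2.28% of genes were called, 1.55% higher and 0.738% lower). The difference between these 2 responses was log2 -0.27 ± 0.14 (SE, 95% interval -0.59 to 0.04, adjusted p = 0.676, where 0.0555% of genes were called and 7.58% had an unadjusted p below 0.05). The response of F2RL1 to HDM was thus not shown to differ between the siRNAs.

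For F2R the HDM responses were log2 0.08 ± 0.06 (SE, 95% interval -0.06 to 0.21, adjusted p = 0.619 in limma) with LY96 siRNA and 0.03 ± 0.06 (SE, 95% interval -0.11 to 0.17, adjusted p = 0.862) with control siRNA. Their difference was log2 0.05 ± 0.09 (SE, 95% interval -0.15 to 0.24, adjusted p = 0.925). These intervals cover changes in either direction, so they bound the response of F2R but do not show that it was 0.

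**Figure D3:**
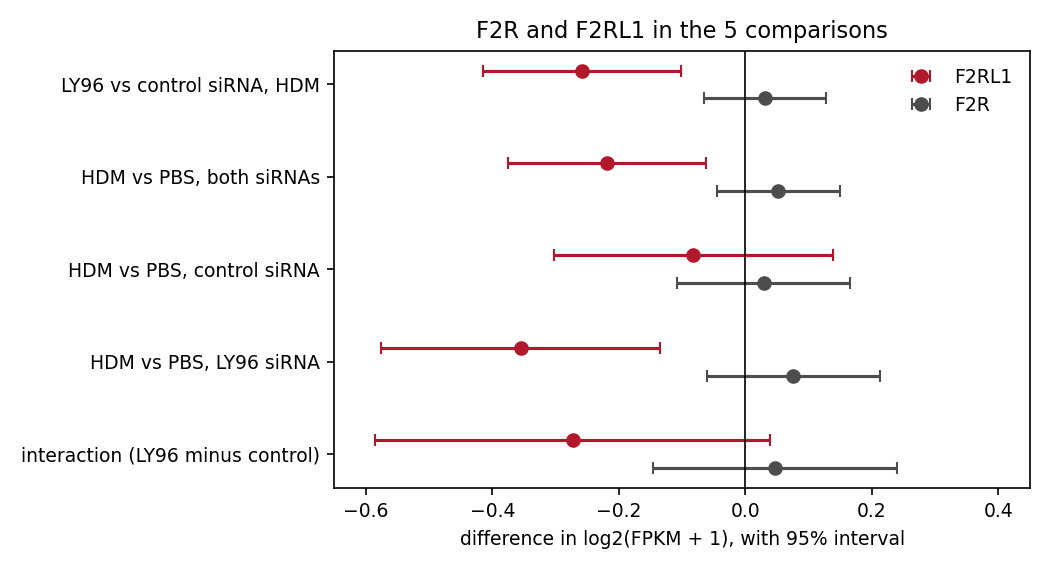
Differences in log2(FPKM + 1) of F2RL1 (red) and F2R (grey) with 95% intervals from limma (horizontal axis) in the 5 comparisons (vertical axis). The interval of F2RL1 lies below 0 in the siRNA comparison under HDM, in the HDM comparison over both siRNAs and in the HDM comparison with LY96 siRNA, and every interval of F2R includes 0.

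The balance between the 2 detected receptors was also read within each library, where scaling between libraries cancels, a measure added after the values had been seen. F2RL1 divided by F2R was 1.40, 1.18 and 1.15 in the LY96 siRNA HDM libraries, against 1.50, 1.40 and 1.72 in the control siRNA HDM libraries. It was 1.70 with LY96 siRNA and PBS and 1.66 with control siRNA and PBS. LY96 HDM replicate 1 overlapped control HDM replicate 2 by a small margin, and the exact permutation test of the log2 ratios gave p = 0.20 (two-sided, difference log2 -0.31). The level of F2RL1 exceeded that of F2R in 8 of 8 libraries.

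**Figure D4:**
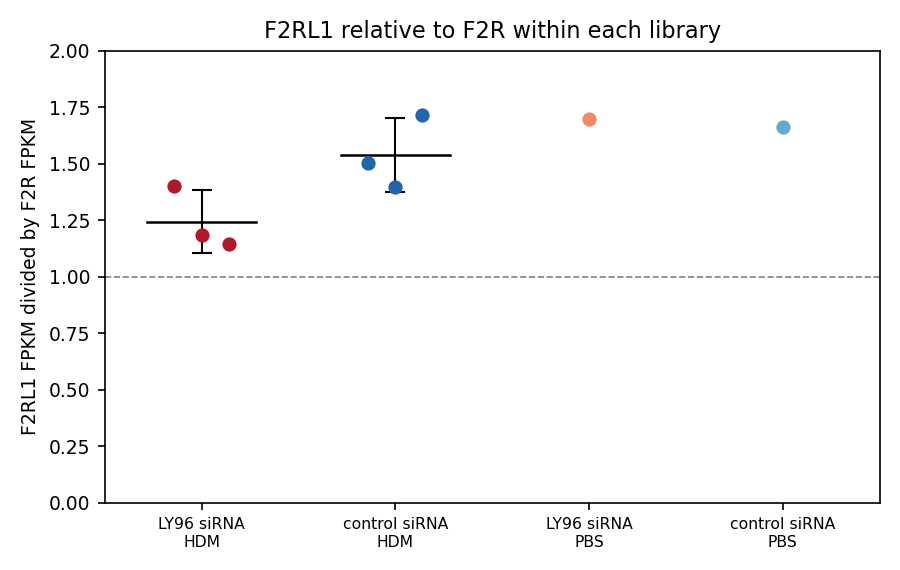
F2RL1 FPKM divided by F2R FPKM (vertical axis) in each library, by group. Lines with bars give mean and SD of the groups of 3, the dashed line marks equal levels, and all 8 libraries lie above it, from 1.15 to 1.72.

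By profile over the 8 libraries, the genes closest to F2RL1 (smallest root mean square difference of mean-centred log2 values, a description only) were ZNF394 at 0.05, ANXA1 at 0.05 and ERGIC2 at 0.06. Of 12603 genes compared, 4057 were closer to F2RL1 than a flat line was, and 245 were closer to F2R than a flat line was. ANXA1, the annexin A1 gene, was at 246 FPKM with LY96 siRNA and HDM, 293 FPKM with control siRNA and HDM, 334 FPKM with LY96 siRNA and PBS and 333 FPKM with control siRNA and PBS. The closest to F2R were NNT at 0.01, ADSSL1 at 0.02 and IMPAD1 at 0.02, each nearly flat like F2R itself.

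Of 40 genes for proteases that can cut or activate these receptors, or belong to their cascades, 17 were tested under HDM, and with LY96 siRNA 7 were lower and 1 was higher. The background was 8.92% of genes lower and 6.68% higher, and the median difference of the list was log2 -0.10, against -0.02 over all genes. KLK7, a chymotrypsin-like kallikrein, was at 4.81, 5.04 and 2.88 FPKM with LY96 siRNA and 10.7, 10.8 and 10.5 FPKM with control siRNA (log2 -1.18, adjusted p = 0.00851 in limma). KLK8, a trypsin-like kallikrein, differed by log2 -0.57 and KLK5, a trypsin-like kallikrein known to cut PAR2, by -0.85. The KLK5 call was lost in 7 of 16 alternatives, among them leaving out LY96 HDM replicate 1 or any control HDM replicate. Of the membrane-anchored serine proteases, PRSS8 (prostasin) differed by log2 -0.48 and ST14 (matriptase), which activates PAR2 on epithelium, by -0.23 (adjusted p = 0.036 for ST14 in limma). MMP2 differed by log2 -0.57 and the lysosomal cysteine protease gene CTSL by -0.17. PLAU, the urokinase gene, was higher by log2 0.22. The calls of ST14, CTSL and PLAU between siRNAs were not followed through the alternatives.

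The siRNA groups also stood apart in the single PBS libraries, with KLK7 at 7.73 FPKM with LY96 siRNA and 15.5 FPKM with control siRNA, and KLK5 at 4.20 FPKM with LY96 siRNA and 9.04 FPKM with control siRNA, with no replicate to test them. With HDM over both siRNAs, PRSS22 (log2 0.35) and CTSL (0.20) rose, and PRSS8 (-0.47) and FURIN (-0.22) fell, out of 16 tested and against backgrounds of 4.86% higher and 3.5% lower. The FURIN call was lost without control HDM replicate 2, without the low-value filter and without trend or robust moderation. The tissue factor gene F3, which starts coagulation, was well detected, at 40.8 FPKM with LY96 siRNA and HDM and 42.7 FPKM with control siRNA and HDM. The thrombin gene F2 averaged 0 FPKM with LY96 siRNA and HDM and 0.0273 FPKM with control siRNA and HDM. F7, a trypsin gene, PRSS1, and the tryptase genes TPSAB1 and TPSB2 were listed at 0 in all 8 libraries. Another trypsin gene, PRSS3, averaged 1.61 FPKM with LY96 siRNA and HDM and 1.41 FPKM with control siRNA and HDM. PRSS3 was at 2.57 FPKM with LY96 siRNA and PBS and 1.35 FPKM with control siRNA and PBS. It was called neither between siRNAs under HDM nor with HDM over both siRNAs.

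Protease inhibitors and coagulation brakes had 5 higher and 6 lower of 18 tested with LY96 siRNA under HDM, against 6.68% of all genes higher and 8.92% lower, with a median of log2 -0.02 for the list and for all genes. SPINK5, whose product blocks kallikreins, was at 10.9, 13.1 and 9.14 FPKM with LY96 siRNA and 28.4, 24.5 and 28.7 FPKM with control siRNA (log2 -1.23, adjusted p = 0.00297 in limma). In the single PBS libraries SPINK5 was at 12.3 FPKM with LY96 siRNA and 33.4 FPKM with control siRNA, with no replicate to test it. CST6, a cysteine protease inhibitor gene, differed by log2 -0.41, while SERPINA1, the antitrypsin gene, was higher by 0.56 and SERPINE2, a thrombin inhibitor gene, by 0.51. With HDM over both siRNAs 6 rose and 3 fell, against 4.86% and 3.5% of all genes. PI3, the elafin gene, rose by log2 0.66 and SERPINA1 by 0.62. SERPINB3 rose by 0.56, a call lost in the additive model. Its HDM difference was log2 0.97 with LY96 siRNA (adjusted p = 0.00223 in limma) and 0.14 with control siRNA (adjusted p = 0.619), and these responses differed with an adjusted p of 0.187 in limma. Reads of its near-identical neighbour SERPINB4 may be shared with it.

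Of 28 tested genes for G proteins and second messenger effectors, through which the receptors signal, 2 were higher and 1 lower with LY96 siRNA under HDM (median log2 -0.0020), near the 15.6% of all genes called in either direction. They were PLCB3 (0.16), ITPR3 (0.13) and GNB1 (-0.12). PLCB3 lost its call in 8 of 16 alternatives, ITPR3 in 7 and GNB1 in 5, leaving out LY96 HDM replicate 2 or 3 or control HDM replicate 2 or 3 among them for all 3. GNA15, a Gq-family subunit gene, was the only one of the 28 called with HDM over both siRNAs, where 8.36% of all genes were called, and it rose by log2 0.35. It was at 9.91 FPKM with LY96 siRNA and HDM and 9.58 FPKM with control siRNA and HDM, against 7.29 FPKM with LY96 siRNA and PBS and 7.60 FPKM with control siRNA and PBS.

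Among genes for desensitisation and trafficking, 4 of 24 tested were higher and 3 lower with LY96 siRNA under HDM (median log2 0.01), against 6.68% and 8.92% of all genes. TMED2, a trafficking gene of this list, was at 78.2, 78.0 and 82.7 FPKM with LY96 siRNA and 94.6, 97.6 and 92.3 FPKM with control siRNA (log2 -0.25, adjusted p = 0.00290 in limma). CBL, whose product ubiquitinates PAR2, was higher by log2 0.23 and AP2A1, an adaptor subunit of endocytosis, by 0.21. RGS3, which quenches G protein signals, was higher by 0.30, a call lost without LY96 HDM replicate 2. ARRB2, an arrestin gene, was at 27.8 FPKM with LY96 siRNA and HDM and 25.1 FPKM with control siRNA and HDM (log2 0.14, adjusted p = 0.0440 in limma). This ARRB2 call was not followed through the alternatives. With HDM over both siRNAs, CAV1, the caveolin gene, was the only one of the 24 called, against 8.36% of all genes. CAV1 was at 143 FPKM with LY96 siRNA and HDM and 140 FPKM with control siRNA and HDM, against 198 FPKM with LY96 siRNA and PBS and 190 FPKM with control siRNA and PBS (log2 -0.45, adjusted p = 2.0e-05 in limma).

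Of 10 tested receptor partners and transactivation genes, HBEGF (log2 0.32) and ADAM17 (0.18) were higher and ADAM10 (-0.23) lower with LY96 siRNA under HDM, where 15.6% of all genes were called. HBEGF encodes an EGF receptor ligand that ADAM sheddases release. HBEGF lost its call without LY96 HDM replicate 1 or 2 or control HDM replicate 2 or 3, and ADAM17 without any LY96 HDM replicate or control HDM replicate 1 or 3. With HDM over both siRNAs, where 8.36% of all genes were called, HBEGF (0.29) and EGFR (0.25) rose and MET (-0.24) fell. The EGFR call was lost in the additive model and the MET call without the low-value filter. EGFR differed between HDM and PBS by log2 0.09 with LY96 siRNA (adjusted p = 0.566 in limma) and by 0.42 with control siRNA (adjusted p = 0.00878), and the difference between these responses had an adjusted p of 0.383 in limma. HBEGF differed by 0.47 with LY96 siRNA and 0.12 with control siRNA, and MET by -0.36 with LY96 siRNA and -0.12 with control siRNA, with adjusted p of 0.606 for HBEGF and 0.640 for MET between the responses in limma. The HBEGF call was lost in 7 of 14 alternatives, among them leaving out any of 5 HDM libraries (all but LY96 HDM replicate 3).

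A list of genes known to rise after receptor activation in epithelium or fibroblasts had 10 higher and 4 lower of 16 tested with HDM over both siRNAs (median log2 0.56, against 0.01 over all genes, of which 4.86% were higher and 3.5% lower). CXCL8 (log2 3.02), CCL2 (2.66) and CCL20 (1.97), all chemokine genes, rose most, and IL6 rose by 1.38. HBEGF also stands in a list above. CTGF (-0.45), THBS1 (-0.38) and CYR61 (-0.30) were among those that fell. With LY96 siRNA under HDM, 9 were higher and 1 lower (median log2 0.30, against -0.02 over all genes, of which 6.68% were higher and 8.92% lower), led by CCL20 at 1.29, CXCL8 at 1.21, the cytokine gene IL6 at 0.72 and CCL2 at 0.56, while F2RL1 was at -0.26. Many of these genes are also direct targets of NF-kB and of other receptors, and the part of the protease-activated receptors in their levels was not tested.

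**Figure D5:**
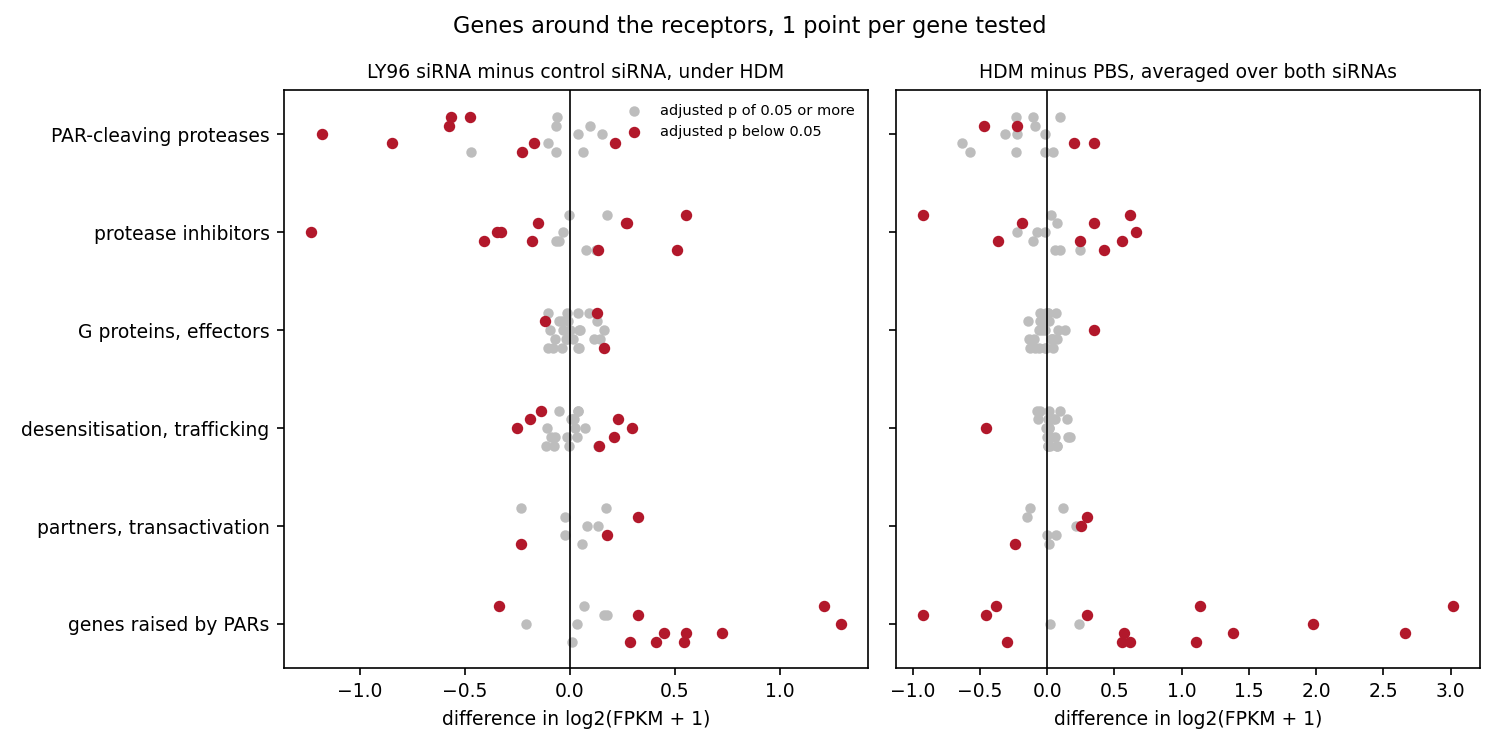
Differences in log2(FPKM + 1) (horizontal axes) of the tested genes of 6 lists (rows), for LY96 siRNA minus control siRNA under HDM on the left and HDM minus PBS over both siRNAs on the right. Each point is a gene, red where the adjusted p was below 0.05, and the list of genes known to rise after receptor activation reaches furthest right, to 3.02 for CXCL8 with HDM.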

How the data were processed

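Deposited values, 1 per gene and library, were read as FPKM from their properties, since neither labels nor headers name the unit: they are not whole, and totals differ between libraries. The submitters' processing notes name HISAT2 2.2.0, a read aligner, and the build hg38. Which program computed the values is not given in the sources used here. Low values showed no steps of whole reads, so depth is unknown.

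Tests used limma 3.58.1 in R 4.3.3 on log2(FPKM + 1), with trend and robust moderation, for genes whose mean in the fitted libraries reached 1 FPKM. They are two-sided, with Benjamini-Hochberg adjustment over all genes and a threshold of 0.05. The siRNA comparison used 6 HDM libraries. The others were contrasts of 4 group means over 8 libraries. Fold changes on this scale understate changes of low genes. The method was tested on simulated data. A receptor averaging under 1 FPKM was called too low to judge. From each list, up to 4 called genes per comparison with the largest difference are named, as are neighbours, and the 3 genes closest in profile to each tested receptor, and 1 gene that this rule names is not reported here. ST14, CTSL, PLAU, F3, PRSS3, ARRB2, THBS1, CTGF, CYR61, marker genes and undetected proteases are named outside that rule, after their values were seen. Apart from CTSL with HDM, these were not followed through the alternatives. Receptors and lists were chosen with earlier results of these data known. The same-numbered HDM libraries deviated with correlations of -0.02 to 0.05, so the numbers were not taken as pairs.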

Additional observations from a re-analysis of the deposited data

How the results depend on the processing

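F2R kept its sign and missed the threshold in all 69 alternatives over 5 comparisons. F2RL1 kept its sign in all of its 69, lost its call in 10 and gained one in 2. Under HDM, the F2RL1 difference between siRNAs was log2 -0.26 without the low-value filter (adjusted p = 0.0922 in limma), -0.24 after median-ratio scaling (0.0533), -0.245 after quantile normalization (0.0518), -0.26 without trend or robust moderation (0.0746) and -0.19 in an additive model over 8 libraries (0.0852). The cause was not tested. Leaving out single HDM libraries, which leaves fewer samples, gave log2 -0.33 to -0.21. For HDM against PBS it gave F2RL1 -0.25 to -0.20 over both siRNAs and -0.43 to -0.32 with LY96 siRNA. With the replicate block F2RL1 stayed at -0.26 (adjusted p = 0.0487). Rescaled to TPM, F2RL1 was 51.4 ± 5.42 with LY96 siRNA and HDM and 61.9 ± 4.28 with control siRNA and HDM (SD, n = 3 each).

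Genes called numbered 1966 for the siRNAs under HDM (1119 to 1369 with 1 library left out), 288 for HDM with control siRNA (187 to 329, and 180 without trend or robust moderation) and 7 for the interaction (0 to 33, 20 without the filter, 14 after quantile normalization and 0 without trend or robust moderation, with 956 at an unadjusted p below 0.05). Of the siRNA calls, 42.8% were higher, and 54.9% after median-ratio scaling. Median-ratio scaling moved no median of all genes by more than 0.1. The low levels of F2RL2 and F2RL3 and the unknown depth limit what can be said of them.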
